A study of Homo sapiens with 6 samples.

Results

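The genes described here are 10 plasma membrane carriers of amino acids, SLC7A5, SLC3A2, SLC7A11, SLC7A1, SLC43A2, SLC38A2, SLC38A1, SLC1A5, SLC1A4 and SLC6A9, out of 17534 genes with counts. They were taken by symbol, having been selected on the difference of their counts between PPM1G shRNA and control libraries, and all 10 passed the filter on low counts, as did 13060 genes in all. RNA sequencing was done on cells labelled NCI-H1703, an established human line that the labels describe as lung squamous cell carcinoma, to compare cells with lowered PPM1G and control cells. In 3 libraries the cells expressed a short hairpin RNA (shRNA) that targets PPM1G, a nuclear serine/threonine phosphatase, and 3 were control libraries. The controls carry the genotype label Sh-NC, while the series title calls them wild-type. Not given in the sources used here are the number of hairpins, whether the cells came from 1 clone and whether the libraries came from separate cultures, so the spread between libraries may be technical.

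Amino acids cross the plasma membrane through several carrier families with different driving forces. SLC1A4, SLC1A5, SLC38A1 and SLC38A2 concentrate neutral amino acids with the sodium gradient or swap them in the presence of sodium. SLC6A9 brings in glycine with sodium and chloride. The SLC7 light chains SLC7A5 and SLC7A11 exchange one amino acid for another. They need the heavy chain SLC3A2, also called 4F2hc or CD98, to reach the membrane, and a disulfide bond links them to it. Carcinoma cells are known to use these exchangers to obtain leucine for mTORC1 signalling and cystine for glutathione, and several of the genes are known targets of ATF4, the transcription factor of the amino acid response.

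Some of the promoters share a short motif, shown here because ATF4 is known to bind it as a partner of C/EBP proteins. The RefSeq promoter table on GRCh38.p14 held 17 windows, each from 250 bases before to 50 bases after a transcript start, for 9 of the 10 genes. SLC7A11 had none. The motif core TGATGNAA, searched on both strands, occurred in 5 of these 17 windows and in 3.62% of all 35116 windows. Counted by gene, it was found in 5 of 9 transporters and in 4.46% of 27305 genes. The 30-base stretches around the 5 matches, written along the gene's own strand with the match in capitals, were as follows.
SLC1A4, chr2:64989381-64989410, + strand: gcggctcccgtTTGCATCAtctccagccgg
SLC3A2, chr11:62881719-62881748, + strand: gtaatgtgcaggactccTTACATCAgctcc
SLC38A1, chr12:46266502-46266531, - strand: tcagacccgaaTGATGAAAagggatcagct
SLC7A1, chr13:29595663-29595692, - strand: gggcgcactgcTGATGAAAcctggcgccgg
SLC1A5, chr19:46784893-46784922, - strand: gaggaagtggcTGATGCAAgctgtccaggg
The matches in SLC1A4 and SLC3A2 read on the strand opposite to the gene, as TTNCATCA. Of the 5 matched windows, only that of SLC7A1 lay at the outermost start of the RefSeq gene. Those of SLC1A4, SLC3A2, SLC38A1 and SLC1A5 lay at starts inside the gene. In GENCODE release 29 the SLC1A4 and SLC38A1 matches lay in the gene but in no exon, whereas those of SLC3A2, SLC7A1 and SLC1A5 lay in an exon annotated as untranslated. The 5 genes include the only transporter with a lower level in the shRNA libraries, SLC1A5.

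Further motifs were searched in the same windows. The E-box CACGTG, which reads alike on both strands and is known to be bound by MYC among others, occurred in windows of SLC7A5 and SLC1A5. By gene that is 2 of 9 transporters beside 8.77% of all genes, and by window 2 of 17 beside 7.26%. The core of the antioxidant response element, TGACNNNGC, to which NRF2 is known to bind, occurred on either strand in windows of SLC7A5, SLC3A2, SLC7A1 and SLC1A5. By gene that is 4 of 9 transporters beside 16.1% of all genes, and by window 4 of 17 beside 13.3%. None of these matches overlapped another motif. SLC7A5 and SLC3A2, which form a heterodimer, are shown with theirs.
SLC7A5 E-box, chr16:87869620-87869649, - strand: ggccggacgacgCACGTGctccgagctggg
SLC7A5 antioxidant core, chr16:87869490-87869519, - strand: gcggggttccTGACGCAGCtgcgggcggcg
SLC3A2 antioxidant core, chr11:62881652-62881681, + strand: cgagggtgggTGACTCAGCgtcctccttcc
A match describes these letters and is not evidence of binding. No motif was found in the windows of SLC43A2, SLC38A2 and SLC6A9.

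Library totals ranged from 31337553 to 35838246 counts. PPM1G had 333, 308 and 324 CPM (counts brought to a common library size with TMM factors) in control libraries 1 to 3 and 182, 194 and 188 CPM in shRNA libraries 1 to 3, a fall of 0.77 on the log2 scale (SE 0.03). Of the defining squamous markers, KRT6A, KRT14, DSG3 and PKP1 averaged 0.110 CPM or less in both groups. TP63 fell from 1.54 ± 0.35 CPM (SD, n = 3) in control to 0.836 ± 0.25 CPM in shRNA libraries (edgeR adjusted p = 0.0059), and SOX2, the one squamous marker above a few CPM, fell from 22.8 ± 1.5 to 10.7 ± 0.63 CPM (edgeR adjusted p = 4.7e-14). Of the lung adenocarcinoma markers, the lineage factor NKX2-1 stood at 114 ± 7.3 CPM in control and 121 ± 6.5 CPM in shRNA libraries and did not pass the test, NAPSA rose from 2.16 ± 0.23 to 21.8 ± 0.40 CPM (edgeR adjusted p = 5.9e-24), and SFTPB was at 0.049 CPM or less. Of the mesenchymal genes, VIM fell from 3379 ± 51 to 1839 ± 16 CPM (edgeR adjusted p = 1.2e-25), and PDGFRA, whose gene is known to be amplified in NCI-H1703, stood at 0.175 ± 0.058 CPM in control and 0.152 ± 0.040 CPM in shRNA libraries. The leukocyte markers PTPRC, CD3E and LYZ were at 0.097 CPM or less, while CD68, a lysosomal protein not limited to macrophages, fell from 1266 ± 31 to 566 ± 16 CPM (edgeR adjusted p = 2.4e-27). The summed level of the fibroblast markers was 154 to 172 CPM in control and 345 to 354 CPM in shRNA libraries, nearly all of it COL1A1, with DCN and LUM at 0.307 CPM or less. The summed endothelial markers were at 5.02 to 7.02 CPM in control and 3.18 to 4.21 CPM in shRNA libraries, and the epithelial ones at 316 to 338 and 299 to 319 CPM. Within the endothelial sum PECAM1 averaged 5.31 CPM in control and 1.075 CPM in shRNA libraries, whereas VWF averaged 0.524 and 2.58 CPM. Nearly all of the epithelial sum was KRT8 and KRT18. EPCAM averaged 11.2 CPM or less in both groups, and CDH1 and KRT19 averaged 0.3135 CPM or less. The part of these cell-type readings in the transporter levels was not tested.

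The 10 transporters were chosen with this comparison in view, so their values are a description and carry no test. Between the groups the ranges of CPM did not overlap for any of the 10, with 9 higher and 1 lower in the shRNA libraries. The same non-overlap held for 83.7% of all tested genes (41.9% higher and 41.8% lower), so nothing is read from it. By the fitted value 6 of the 10 were at least 2-fold higher, as were 11.9% of all tested genes. The median log2 fold change was 1.81 over the 10 and 0.01 over all tested genes. In bulk libraries a change in the share of cells that express a gene and a change per cell cannot be told apart.

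**Figure D1:**
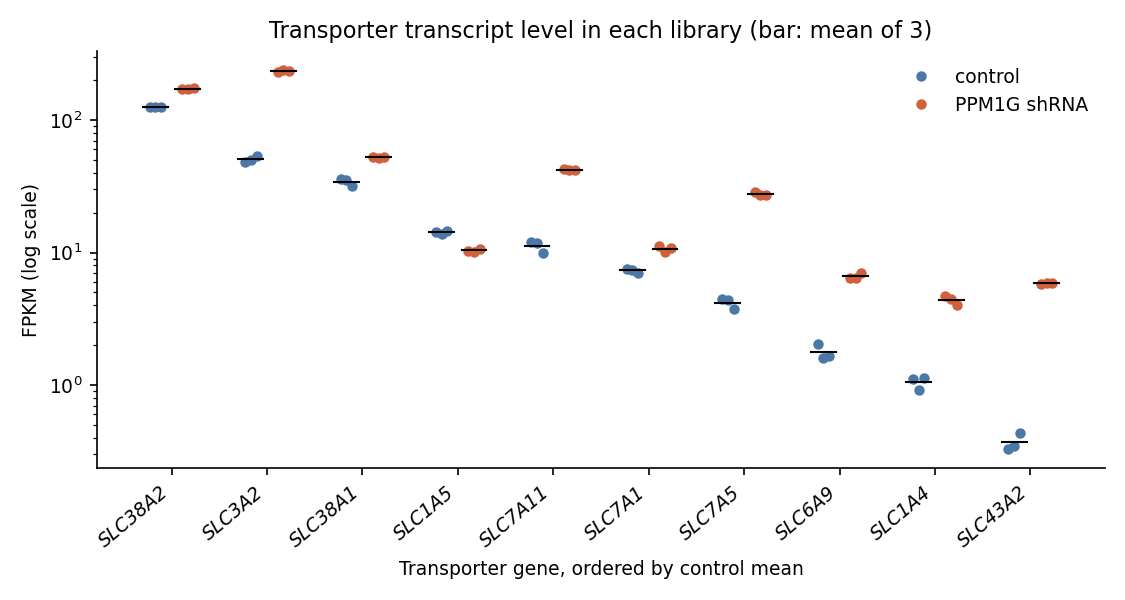
FPKM (counts per gene length and library total, log axis) of the 10 transporter genes, ordered by control mean. Each point is 1 library (3 control in blue, 3 PPM1G shRNA in orange) and each black bar is the mean. The orange points lie above the blue ones for 9 genes and below them for SLC1A5.

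The heavy chain SLC3A2 (Entrez 6520, chr11:62856109-62888860), which escorts several light chains to the membrane, had one of the highest levels. It stood at 121, 126.5 and 136 CPM in control libraries 1 to 3 and at 545, 564 and 552 CPM in shRNA libraries 1 to 3. All shRNA libraries lay far above all controls, with a fitted log2 fold change of 2.11 (SE 0.03), or 4.33-fold. Levels of different genes are compared here only per length, by the authors' FPKM. On that scale SLC3A2 was second among the 10 in control libraries, at 50.6 ± 2.9 FPKM (SD, n = 3), and first in shRNA libraries, at 235 ± 4.5 FPKM.

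SLC7A5 (Entrez 8140, chr16:87830023-87869507), the light chain known as LAT1, takes up leucine and other large neutral amino acids in exchange for glutamine. Its level was 24.7, 24.2 and 20.6 CPM in control libraries 1 to 3 and 149, 140.5 and 141 CPM in shRNA libraries 1 to 3. The shRNA libraries were thus all higher, by 2.63 on the log2 scale (SE 0.05), or 6.19-fold. In control libraries SLC7A5 was a middling transcript, at the 36.9th percentile of FPKM among tested genes, and in shRNA libraries it was at the 81.0th.

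SLC7A11 (Entrez 23657, chr4:138164097-138242349), or xCT, exchanges intracellular glutamate for extracellular cystine, the precursor of the cysteine in glutathione. It stood at 122, 118 and 100 CPM in control libraries and at 404, 393 and 392 CPM in shRNA libraries. The log2 fold change was 1.81 (SE 0.06). As with SLC7A5, the third control library was the lowest of the 6 for this gene, and the shRNA libraries were closer to each other than the controls were.

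Both light chains were higher than in controls, and the heavy chain more so than the light chains together. SLC3A2 is known to pair with SLC7A5, SLC7A6, SLC7A7, SLC7A8 and SLC7A11 among the light chains analysed here. The FPKM of these 5 summed to 26.3 ± 1.9 in control and 82.4 ± 1.3 in shRNA libraries (SD, n = 3). The ratio of SLC3A2 to this sum was 1.74, 1.84 and 2.22 in control libraries 1 to 3 and 2.76, 2.90 and 2.89 in shRNA libraries 1 to 3. The ratio was therefore higher in every shRNA library, and it compares transcripts, not proteins. SLC7A5 made up 15.8 ± 0.40% of the light chain FPKM in control and 33.6 ± 0.70% in shRNA libraries, and SLC7A11 42.6 ± 1.4% and 51.1 ± 0.36%. The share of SLC7A6, or y+LAT2, which exchanges cationic for neutral amino acids, was 28.4 ± 1.1% in control and 10.2 ± 0.60% in shRNA libraries, while its own FPKM was 7.47 and 8.39. The ratio of SLC7A11 to SLC3A2 overlapped between the groups, at 0.223 ± 0.035 in control and 0.179 ± 0.0057 in shRNA libraries.

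**Figure D2:**
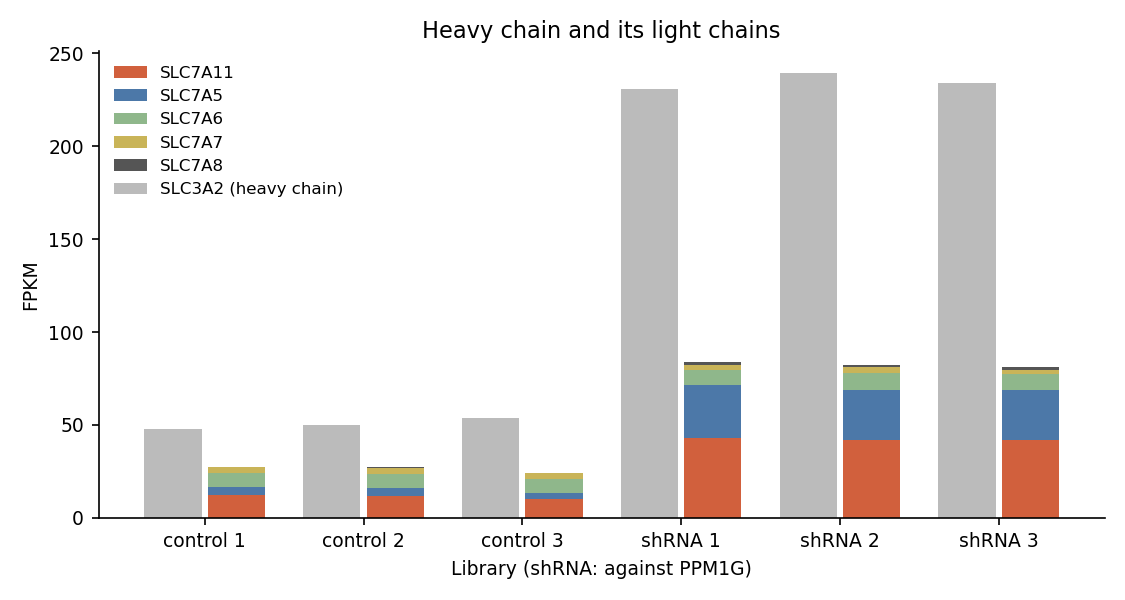
FPKM of the heavy chain SLC3A2 (grey bars) and of the 5 light chains (stacked bars) in each of the 6 libraries. The light chains sum to about 26.3 FPKM in control and 82.4 FPKM in PPM1G shRNA libraries, and the grey bar is the taller one in every library.

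SLC43A2 (Entrez 124935, chr17:1569254-1630088), known as LAT4, carries leucine, phenylalanine and methionine by facilitated diffusion and needs no heavy chain. It had the largest log2 fold change of the 10, 3.88 (SE 0.08). Its level was 3.12, 3.32 and 4.15 CPM in control libraries and 51.8, 52.4 and 52.2 CPM in shRNA libraries, that is 107, 114 and 143 counts against 1676, 1938 and 1937. It was the least abundant of the 10 per length in control libraries, at 0.371 ± 0.057 FPKM. At 5.86 ± 0.044 FPKM in shRNA libraries it stood ninth, so the steepest difference belonged to a transcript that stayed modest. On the log2(FPKM + 1) scale, which understates changes of low genes, the difference was 2.32.

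SLC7A1 (Entrez 6541, chr13:29509414-29595688), or CAT-1, is the main carrier of arginine and lysine in many cells and also works without a heavy chain. It had 57.9, 56.7 and 54.0 CPM in control and 79.9, 72.5 and 77.0 CPM in shRNA libraries. Its difference was small beside those of the SLC7 exchangers, a log2 fold change of 0.44 (SE 0.05).

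The SLC38 carriers SLC38A1 (SNAT1) and SLC38A2 (SNAT2) concentrate glutamine, alanine and serine with sodium, and SLC38A2 is known to be induced when amino acids are scarce. Their genes are neighbours on chromosome 12, at chr12:46183063-46269043 (Entrez 81539) and chr12:46358188-46372773 (Entrez 54407), with 89144 bases between them. SLC38A2 stood at 623, 622 and 628 CPM in control and at 797, 796 and 804 CPM in shRNA libraries. Its 6 values formed 2 tight groups, with a log2 fold change of only 0.36 (SE 0.03). SLC38A1 stood at 413, 400 and 364 CPM in control and at 561, 555 and 563 CPM in shRNA libraries, a log2 fold change of 0.51 (SE 0.03). SLC38A2 was the most abundant of the 10 per length in control libraries, at 126 ± 0.60 FPKM, and was second to SLC3A2 in shRNA libraries, at 172.5 ± 1.1 FPKM.

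The sodium-dependent exchangers of the SLC1 family went opposite ways. SLC1A5 (Entrez 6510, chr19:46774883-46788594), or ASCT2, a glutamine carrier of many tumours, had 46.6, 44.7 and 47.6 CPM in control and 31.5, 30.8 and 32.4 CPM in shRNA libraries. All shRNA libraries were lower, with a log2 fold change of -0.55 (SE 0.05), or 0.682 of the control level. SLC1A4 (Entrez 6509, chr2:64988479-65023865), or ASCT1, which carries alanine, serine and cysteine, had 5.34, 4.37 and 5.43 CPM in control and 21.0, 20.02 and 17.9 CPM in shRNA libraries, a log2 fold change of 1.96 (SE 0.10). SLC1A5 nevertheless stayed the more abundant of the pair: the ratio of its FPKM to that of SLC1A4 was 12.8, 15.0 and 12.9 in control libraries and 2.21, 2.26 and 2.67 in shRNA libraries.

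SLC6A9 (Entrez 6536, chr1:43996483-44031462), or GlyT1, takes up glycine, which cells also make from serine and use for glutathione and purines. It had 7.73, 6.03 and 6.21 CPM in control and 22.8, 22.6 and 24.6 CPM in shRNA libraries, a log2 fold change of 1.81 (SE 0.09). Its locus overlaps the protein-coding gene CCDC24, which had 4.38 ± 0.81 CPM in control and 10.8 ± 0.46 CPM in shRNA libraries. Without the strand setting, reads of the overlapping part cannot be assigned.

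Across the 10 genes the order of levels was partly rearranged. In control libraries it ran from SLC38A2 through SLC3A2, SLC38A1, SLC1A5, SLC7A11, SLC7A1, SLC7A5, SLC6A9 and SLC1A4 to SLC43A2, and no neighbours in that order overlapped in FPKM. In shRNA libraries it ran from SLC3A2 through SLC38A2, SLC38A1, SLC7A11, SLC7A5, SLC7A1, SLC1A5, SLC6A9 and SLC43A2 to SLC1A4. There SLC7A1 (10.7 ± 0.51 FPKM) and SLC1A5 (10.4 ± 0.27 FPKM) overlapped. The summed FPKM of the 10 was 250.7 ± 0.41 in control and 567.5 ± 2.7 in shRNA libraries, and SLC3A2 and SLC38A2 carried most of it. SLC3A2 made up 20.2 ± 1.2% of the sum in control and 41.4 ± 0.60% in shRNA libraries, and SLC38A2 50.2 ± 0.32% and 30.4 ± 0.18%.

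The control libraries were the more variable for most of these genes. The coefficient of variation of CPM was larger in control than in shRNA libraries for 9 of 10, the exception being SLC7A1. Its median over the 10 was 7.98% in control and 2.14% in shRNA libraries, against 4.89% and 3.85% over all tested genes. This coefficient tends to grow as counts fall, and all of the 10 but SLC1A5 had lower levels in control. The part of level in the difference was not tested. Control library 3 lay below both other controls for 4 of the genes and above both for 5. It was thus the extreme control for most of them, though not shifted one way. Over all genes it also stood apart. The chi-square per degree of freedom of counts was 6.44 and 5.88 between control 3 and controls 1 and 2. It was 3.24 between controls 1 and 2, and 2.69 to 3.08 between shRNA libraries.

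Some transcripts share sequence or a locus with other genes, which limits how exactly they can be counted. Of the 50-base stretches of the longest GENCODE coding transcript, 4.10% in SLC7A5 were also found in transcripts of other genes, its pseudogenes SLC7A5P1 and SLC7A5P2 and SMG1P3. The share was 4.24% in SLC43A2 and 0.948% in SLC7A11, spread over many unrelated genes, and 0 in the other 7. In RefSeq 5 of the 10 loci overlap another gene, among them the antisense genes SLC7A5-AS1 and SLC7A11-AS1.

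To set these 10 beside other amino acid carriers, further lists were read from the same fit over all genes with edgeR's quasi-likelihood test, at an adjusted p under 0.05. Over all tested genes 82.9% passed, 41.5% as higher and 41.3% as lower, so counts are read against those shares. This list and those below were drawn up with earlier results of these data known. Their counts therefore describe the listed genes and are no test of a set. Of 37 further plasma membrane carriers, 30 were matched in the table and 12 had enough counts to be tested. Of these, 5 rose, 6 fell and 1 did not pass, with a median log2 fold change of -0.10. The 10, selected on this same comparison, are not in that list, so the gap between its median and theirs was partly fixed by the selection. The other solute carriers outside the mitochondrial SLC25 family showed 72 rises and 60 falls among 168, with a median of 0.02. The shares of rises, 41.7% and 42.9%, were thus near that over all genes.

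Within the families that also hold the 10, paralogs moved both ways. SLC7A8, or LAT2, the closest functional relative of SLC7A5, rose from 1.05 to 6.02 CPM (log2 fold change 2.52, SE 0.18, adjusted p = 3.6e-14 in edgeR), but it stayed a minor transcript, with an FPKM of 1.34 against 27.7 for SLC7A5. SLC43A1, or LAT3, the paralog of SLC43A2, rose by 1.44 (SE 0.06), from 20.9 to 56.8 CPM. The ratio of SLC43A2 to SLC43A1 in FPKM was 0.0623 ± 0.0032 in control and 0.339 ± 0.010 in shRNA libraries, so SLC43A1 remained the more abundant of the pair. The cationic carrier gene SLC7A2 fell by 1.86 (SE 0.19), from 5.36 to 1.48 CPM, unlike its paralog SLC7A1. SLC7A6 stood at 52.4 CPM in control and 54.9 CPM in shRNA libraries and did not pass (log2 fold change 0.07, SE 0.05). SLC7A7, or y+LAT1, fell by 0.27 (SE 0.12, edgeR adjusted p = 0.037). That call was lost without control replicate 1 (adjusted p = 0.078), control replicate 2 (0.080), shRNA replicate 1 (0.11) or shRNA replicate 3 (0.24).

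Among the SLC38 paralogs, SLC38A10 rose by 0.37 (SE 0.04) and SLC38A6 by 0.23 (SE 0.07), and SLC38A4, or SNAT4, fell by 0.39 (SE 0.11). SLC1A1, a glutamate and cysteine carrier, fell by 0.90 (SE 0.32) from 1.19 to 0.635 CPM, a call that was lost without control replicate 1 (adjusted p = 0.14). In the SLC6 family, the taurine carrier gene SLC6A6 rose by 0.59 (SE 0.03). Outside the families of the 10, the proline and tryptophan carrier gene SLC36A4 fell by 0.28 (SE 0.05), and SLC16A10, which encodes a carrier of aromatic amino acids, fell by 0.79 (SE 0.22).

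The 7 listed carriers of the lysosome, most of which return products of protein breakdown to the cytosol, all rose. Which carriers were listed was decided with earlier results known, so the count does not speak for lysosomal carriers at large. All 7 passed in the same direction, against 41.5% of all tested genes, with log2 fold changes from 0.56 to 1.41 and a median of 0.71. MFSD12, which takes cysteine into lysosomes, rose by 1.41 (SE 0.03), from 104 ± 2.7 to 277 ± 6.2 CPM (SD, n = 3). CTNS, the cystine exporter, rose by 1.23 (SE 0.04). Both loci overlap protein-coding genes. So do those of SLC7A6, SLC38A6 and SLC6A6 above, and of EIF2S1, EIF2AK1, EIF2AK2, SHMT1, SESN1, CASTOR2, GGT1 and ARG2 below. SLC38A9, the arginine-sensing carrier that signals to mTORC1, rose by 0.78 (SE 0.08), and the cationic amino acid exporter gene SLC66A1 by 0.71 (SE 0.05). SLC15A4, a carrier of histidine and peptides, rose by 0.69 (SE 0.05), and the glutamine and asparagine exporter gene SLC38A7 by 0.68 (SE 0.04).

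**Figure D3:**
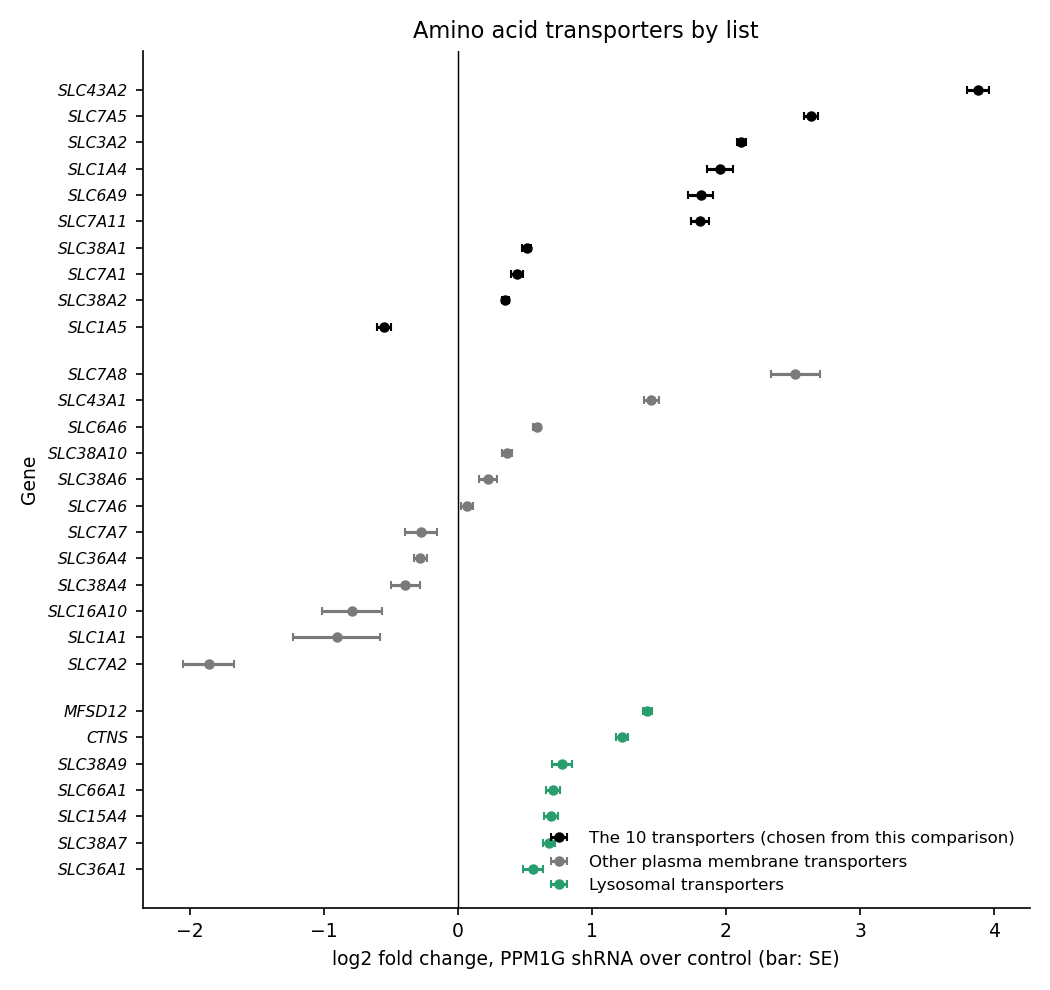
Log2 fold change of PPM1G shRNA over control libraries for the 10 transporters, the 12 other tested plasma membrane carriers and the 7 lysosomal carriers. Points are fitted values and bars are their SE over 3 libraries a group. The lysosomal carriers lie between 0.56 and 1.41, while the other plasma membrane carriers spread from -1.86 to 2.52.

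Known regulators of these carriers and genes of the amino acid response, read as one list, were mostly higher. Of 20, all but TRIB3, which had at most 9 counts in a library, were tested. Of these 15 rose and 4 fell (78.9% and 21.1%), against 41.5% and 41.3% of all tested genes. The median log2 fold change was 0.58. The list pools activators, repressors such as BACH1 and genes of the response, so its count gives no direction of effect on the carriers. ATF4 itself rose by 1.88 (SE 0.03), from 183 to 671 CPM (edgeR adjusted p = 4.7e-31). Genes of the same response rose more, namely DDIT3 (3.68, SE 0.08), whose locus overlaps MARS1, ATF3 (3.34, SE 0.05) and PPP1R15A (3.08, SE 0.03), which encodes a subunit of the phosphatase that reverses phosphorylation of eIF2. NFE2L2, which encodes the SLC7A11 activator NRF2, rose by 1.97 (SE 0.03), and BACH1, a repressor at the same elements, by 1.90 (SE 0.03). CEBPB, which encodes one of the C/EBP partners of ATF4, rose by 1.89 (SE 0.05). Those that fell were EIF2S1, the alpha subunit of eIF2 (-0.43, SE 0.03), and the eIF2 kinase genes EIF2AK4, which encodes the amino acid sensor GCN2 (-0.20, SE 0.03), EIF2AK2 (-0.18, SE 0.05) and EIF2AK1 (-0.15, SE 0.03). With plain library totals as the scale 2 of these fell in place of 4, since the calls of EIF2AK1 and EIF2AK2 were lost. EIF2AK3, the other eIF2 kinase gene of the list, rose by 0.50 (SE 0.05), so the eIF2 kinase genes did not move as a group.

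Enzymes that use the carried amino acids went both ways. Of 33, 29 were tested, with 12 rises, 14 falls and a median log2 fold change of -0.03. These shares, 41.4% and 48.3%, were near the 41.5% and 41.3% over all tested genes. ASNS, which makes asparagine from glutamine, rose by 2.75 (SE 0.03), and CHAC1, which breaks down glutathione, by 2.26 (SE 0.16). GLDC of the glycine cleavage system fell by 1.79 (SE 0.24), the serine-glycine converting enzyme gene SHMT1 by 1.70 (SE 0.05), the mitochondrial aspartate aminotransferase gene GOT2 by 1.15 (SE 0.03) and the spermidine synthase gene SRM by 1.12 (SE 0.04). GLUL, GPT2 and BCKDHB did not pass, though with plain library totals the GLUL log2 fold change was 0.11 and passed (edgeR adjusted p = 0.0086). The untested ones were GLS2, ASS1, PHGDH and PSAT1, and the serine synthesis genes PHGDH and PSAT1 had at most 12 and 5 counts in any library.

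Sensors that report amino acids to mTORC1 were read as one list with Rag GTPase genes and genes of Rag regulators. Of its 12 tested genes 10 rose and 2 fell (83.3% and 16.7%), against 41.5% and 41.3% of all tested genes. The median log2 fold change was 0.73. SESN2, the leucine sensor known as an ATF4 target, rose by 2.15 (SE 0.05), from 21.9 to 97.2 CPM. The Rag GTPase genes RRAGC and RRAGB rose by 1.38 (SE 0.05) and 1.16 (SE 0.08), and the genes of the Rag regulators folliculin, FLCN, and FNIP1 by 1.04 (SE 0.03) and 1.15 (SE 0.04). CASTOR1, an arginine sensor, rose by 1.09 (SE 0.17), whereas its paralog CASTOR2 fell by 0.72 (SE 0.08) and SESN3 fell by 0.61 (SE 0.05). SESN1 rose by 0.35 (SE 0.10), so the SESN and CASTOR genes went both ways.

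**Figure D4:**
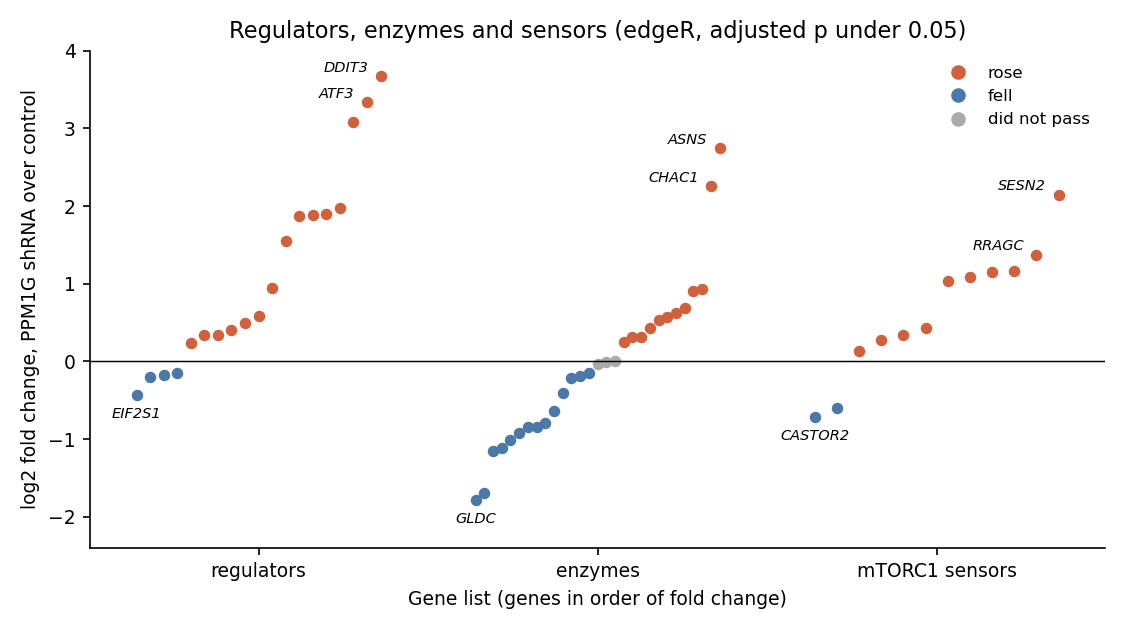
Log2 fold change of PPM1G shRNA over control for 19 genes of the regulator list, 29 enzymes and 12 genes of the mTORC1 sensor list, each point 1 gene in order of its value. Orange points rose, blue points fell and grey points did not pass edgeR's test. Points of the regulator and sensor lists lie mostly above 0, and enzymes lie on both sides.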

How the data were processed

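The deposited tables give raw counts per gene for 6 libraries, unnormalized as judged from the values. They also give FPKM, where the authors scaled each count by a single gene length and by the library's total count. A column kit and a SMARTER mRNA library kit were used, per the labels' protocols, and the genome build was GRCh38, per the submitters' processing notes. Not given in the sources used here are the aligner, counting program, annotation and strand setting.

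Genes passing edgeR's filter at a minimum of 10 counts were scaled by TMM factors and fitted with group as the sole term (edgeR 4.0.16, with limma 3.58.1 and DESeq2 1.42.0 for alternatives, in R 4.3.3). P-values come from the robust quasi-likelihood F-test, with Benjamini-Hochberg adjustment over all genes tested and a threshold of 0.05. The SE of a log2 fold change is its size over the root of F, and positive values mean higher in PPM1G shRNA libraries. CPM values use the TMM factors, FPKM the plain totals. The fit was also run on simulated data with known changes in a small part of the genes. In these data most genes passed, so that simulation does not bear on the scaling here. Chi-square per degree of freedom between libraries of a group was 2.69 to 6.44, above sampling noise. Each library was treated as 1 replicate, which does not show that the cultures were separate. The square root of edgeR's common dispersion was 0.0393. P-values are set against this spread between libraries, which may be technical. Same-numbered libraries of the groups did not deviate together, so replicate numbers were not used as pairs.

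The 10 transporters and the gene lists were chosen with earlier results of these data known. A regulator and a marker of those lists are not reported here and enter no count of their lists. From each further list the rule named up to 6 genes with the largest absolute log2 fold change past the threshold, and every tested paralog of the transporters. ATF4, EIF2AK3, SESN1, SLC36A4 and the few genes of a list that fell or did not pass were named after their values were seen. Alternatives were other scalings, filters and tools, a replicate block and leaving out each library in turn. Gene positions and promoters came from RefSeq on GRCh38.p14, where 17483 genes matched by Entrez ID, and transcripts from GENCODE release 29.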

Additional observations from a re-analysis of the deposited data

How the results depend on the processing

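Under all 14 alternatives run, 9 of the 10 transporters were higher and SLC1A5 was lower in the shRNA libraries, and 6 were at least 2-fold higher. Their median log2 fold change ranged from 1.43 on the log2(FPKM + 1) scale, which understates low genes, to 1.91 with plain library totals. SLC43A2 moved most, to 2.32 on the log2(FPKM + 1) scale. Scaling FPKM by the TMM factors changed the place in the order of levels for 0 of the 10 in either group. Plain library totals moved the median over all genes to 0.12, beside which SLC38A2 stood at 0.46, SLC7A1 at 0.54 and SLC1A5 at -0.45. The fit with a replicate block called 10805 genes against 10821 without it, and the counts of rises and falls in each list stayed within 1.5 times. The deviations of same-numbered libraries correlated at 0.037, 0.012 and 0.008. The count of falling regulators was 2 in place of 4 with plain library totals and with limma on log2(FPKM + 1) or log2(FPKM + 0.1). DESeq2 called 10661 genes. The calls of BCAT2 and ARG2, both falls, were lost in 9 and 7 alternatives, that of SLC7A7 in 9 and that of GGT1, a rise, in 2, and SLC7A6 passed as a rise in 4. The GLUL log2 fold change passed as a rise in 3, with plain library totals (0.11, adjusted p = 0.0086 in edgeR) and in the limma fits on log2(FPKM + 1) and log2(FPKM + 0.1) (adjusted p = 0.023 and 0.025).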
